A study of Mus musculus with 24 samples.

Results

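The genes described here code for the machinery of mitosis: the kinases that start it, the kinetochore and spindle that move the chromosomes, and the ring that splits the cell. They were chosen by symbol, as a list of 48 genes, and found on the array through probes whose RefSeq transcript maps to those symbols. All 48 had a probe, among 45616 entries in all (genes, and targets without a matched gene name). A gene with several probes was read from its brightest probe that passed the filter, and 22 of the 48 members had more than 1 probe, at most 3.

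The arrays measured RNA of white adipose tissue (WAT), kidney, liver and lung from male C57BL/6J mice aged 10 weeks (10W, young) or 90 weeks (90W, aged), with 3 mice per age and tissue and 24 arrays in all. The labels give no treatment. Aged livers carry the replicate numbers 1, 2 and 4, and all other groups 1, 2 and 3. Each tissue was hybridised on 1 slide that held both ages, so age was compared within a slide and tissue cannot be told apart from slide. The comparison asked which members differ in RNA level between aged and young mice of a tissue. Genes that mark each tissue were present: Alb was the brightest of 6 hepatocyte markers in liver, Sftpc of 6 epithelial markers in lung, Kap of 6 tubule markers in kidney, and Fabp4 or Cidec of 6 adipocyte markers in WAT, with all 6 well above background on every array of the tissue. Between 58.6% and 71.1% of probes were well above background on an array, the scanner software's call that a spot exceeds its local background.

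Dividing cells switch on a shared programme of mitotic genes late in the cell cycle. Their promoters often hold a pair of short elements, the cell cycle genes homology region (CHR), bound by the MuvB complex with B-MYB or FOXM1, and the CCAAT box, bound by NF-Y. Adult liver, kidney and adipose tissue hold few dividing cells, and the RNA of these genes is widely read as a mark of cells in cycle. In bulk tissue, more cells in mitosis and more RNA per cell cannot be told apart.

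Promoters of members with large mean changes are shown to let those elements be seen. The CHR was searched as TTTGAA or its reverse complement TTCAAA, and the CCAAT box as CCAAT or ATTGG, in windows of 300 bases, from 250 before to 50 after the RefSeq transcription start (assembly GRCm38.p6). A window was found for 41 members, of which 31 (75.6%) held a CHR, 32 (78.0%) a CCAAT box and 27 (65.9%) both. Of all 27025 genes with a window, 20.2% held a CHR, 41.1% a CCAAT box and 7.97% both. The 6 promoters shown belong to the members holding both elements with the largest mean change over the 4 tissues, leaving out any on chromosomes not printed here. That rank used measured changes even where no young array was well above background, as for Ttk in liver, lung and kidney, Kif4 in liver and kidney, and Bub1b in the liver, so it does not order these genes by a known size of change. Each line gives the 250 bases before the start, 5′ to 3′ on the gene's strand, and capitals mark the letters of either element.
Top2a: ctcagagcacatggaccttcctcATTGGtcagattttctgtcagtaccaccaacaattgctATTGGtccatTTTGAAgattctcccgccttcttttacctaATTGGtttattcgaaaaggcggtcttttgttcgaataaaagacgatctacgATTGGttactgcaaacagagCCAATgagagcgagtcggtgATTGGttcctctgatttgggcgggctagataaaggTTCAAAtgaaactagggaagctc
Mki67: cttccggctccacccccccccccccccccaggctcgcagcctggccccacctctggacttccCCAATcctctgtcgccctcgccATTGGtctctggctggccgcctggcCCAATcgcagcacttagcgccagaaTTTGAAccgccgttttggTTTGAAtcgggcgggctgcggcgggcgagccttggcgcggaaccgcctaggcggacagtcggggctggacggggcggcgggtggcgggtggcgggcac
Ttk: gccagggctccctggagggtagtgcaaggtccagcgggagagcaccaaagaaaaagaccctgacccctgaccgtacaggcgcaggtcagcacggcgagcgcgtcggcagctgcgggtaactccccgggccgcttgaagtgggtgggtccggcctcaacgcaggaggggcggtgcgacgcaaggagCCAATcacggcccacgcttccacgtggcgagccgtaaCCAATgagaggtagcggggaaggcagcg
Plk1: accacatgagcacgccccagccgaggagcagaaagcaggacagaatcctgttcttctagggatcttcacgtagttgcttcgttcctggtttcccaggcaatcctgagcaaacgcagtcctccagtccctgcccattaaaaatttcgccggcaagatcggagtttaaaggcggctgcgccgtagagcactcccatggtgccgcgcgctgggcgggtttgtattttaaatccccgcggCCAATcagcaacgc
Kif4: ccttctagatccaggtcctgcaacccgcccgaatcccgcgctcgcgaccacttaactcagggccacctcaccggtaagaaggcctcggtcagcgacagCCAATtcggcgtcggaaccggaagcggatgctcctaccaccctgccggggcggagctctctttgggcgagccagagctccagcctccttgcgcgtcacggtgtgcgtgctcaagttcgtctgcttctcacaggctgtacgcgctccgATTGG
Bub1b: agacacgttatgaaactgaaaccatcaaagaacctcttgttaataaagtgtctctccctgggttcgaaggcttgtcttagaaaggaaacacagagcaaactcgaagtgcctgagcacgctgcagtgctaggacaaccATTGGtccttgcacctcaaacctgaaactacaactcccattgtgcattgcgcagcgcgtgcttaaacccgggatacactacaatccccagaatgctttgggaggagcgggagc
These lie at chr11:99024190-99024439 (minus strand) for Top2a, chr7:135716380-135716629 (minus) for Mki67, chr9:83834439-83834688 (plus) for Ttk, chr7:122159185-122159434 (plus) for Plk1, chrX:100625815-100626064 (plus) for Kif4 and chr2:118597961-118598210 (plus) for Bub1b. The Top2a promoter held 2 CHR and 6 CCAAT matches, and that of Mki67 held 2 and 3. In Ttk, Plk1, Kif4 and Bub1b the CHR match lay past the start, beginning 8, 31, 20 and 41 bases after it, so their lines show CCAAT boxes alone. A match is a string of letters and does not show that a factor binds there.

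Levels are given as log2 of processed signal over the 75th percentile of the array, so that 0 is the signal below which 75 percent of probes lie, and array values follow the order of the replicate numbers. A change is the aged mean minus the young mean. It was called where limma's moderated test on 3 and 3 arrays gave an adjusted p below 0.05 over all entries tested in that tissue, an entry being tested if 3 or more of the 6 arrays had it well above background. An exact two-sided permutation test of 3 against 3 mice cannot give a p under 0.1, hence the use of limma, which pools the spread over genes.

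In the kidney, the mitotic genes rose almost as a block. Of the 48 members, all tested, 42 were called higher at 90 weeks, against 20.6% of the 31505 entries tested, and 3 (Kif20b, Cenpe and Spc25) were called lower, against 42.6%. Measured on each array against the young mean, the median member stood at -0.18, 0.18 and 0.01 in the young kidneys and at 1.91, 2.10 and 1.91 in the aged ones. The aged arrays were near one another and far above the young, while over all entries they stood at -0.39, -0.41 and -0.31. All 3 aged values lay above all 3 young values for 42 members, against 23.1% of entries tested. That count was not taken without the 7 members that passed the filter through aged kidneys alone, for which the filter favours such a separation. The median change of all 48 was 1.97 (quartiles 1.28 and 2.21), against -0.36 over all entries, and it was 1.80 with members that no young array measured set at their lower bound. With normexp background correction it was 0.95. Of the 41 members also measured in young kidneys, 35 were called higher, while the other 7 passed the filter through the aged kidneys alone. Scaling to the spike-in controls, chosen after seeing the data, moved the median of tested entries by 0.38 and centring on the median by -0.11. With spike-ins 44 members were called higher and 1 lower, and 67.6% of all calls in the kidney were upward against 32.6% otherwise.

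In the liver, 22 of the 44 members tested were called higher and 0 lower, against 10.5% and 17% of the 27906 entries tested. limma gave 34 members higher and 0 lower at an unadjusted p under 0.05 (14.9% of entries higher), and the methods' t-test called 1 higher after adjustment (20 unadjusted, against 12.9% of entries). Per array, the median member stood at -0.11, 0.30 and -0.18 in young livers and at 1.40, 2.94 and 1.07 in aged ones. Aged liver 2 was far above the other aged livers, and even the lowest aged liver was well above the highest young one. For 36 of the tested members all aged livers lay above all young ones, against 16.8% of entries. That count was not taken without the 8 members that passed the filter through aged livers alone, for which the filter favours such a separation. The median change over all 48 was 1.75 (quartiles 1.30 and 2.22), against -0.38 over all entries, and 1.63 with the 12 members that no young liver measured at their bound. Of the 36 members measured in young livers too, 16 were called higher. The count moved with single mice: 8 were called without young replicate 1, 9 without young replicate 2 and 9 without young replicate 3. Of all entries, 1797 of 27321, 1498 of 27578 and 2203 of 27559 were called higher in these settings. Without aged replicate 1, 11 members were called, but 36 were then tested in place of 44. Of the 16 called members still tested, 11 stayed called. Normexp background correction gave 12, with a median change of 0.71, and spike-in scaling gave 36, and with spike-ins 65.8% of all liver calls were upward against 38.1% otherwise.

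In the lung the rise was spread over most members. Of 47 members tested, 30 were called higher and 0 lower, against 2.72% and 2.89% of the 30327 entries tested, and limma gave 40 higher and 0 lower unadjusted (9.19% of entries higher). Per array, the median member stood at -0.05, 0.03 and 0.02 in young lungs and at 0.76, 1.18 and 1.03 in aged ones. The young lungs hardly differed, and each aged lung was above them, with aged replicate 1 the least so. No overlap between the ages was seen for 40 members tested, against 11.6% of entries with all aged above all young arrays. The median change was 1.01 (quartiles 0.74 and 1.24), against 0.01 over all entries. These calls lay close to the threshold. Members called higher were 0, 0 and 4 without young replicates 1, 2 and 3. Few entries of any kind were called higher then: 1 of 29817, 17 of 29619 and 140 of 29808. Unadjusted, limma gave 41, 40 and 39 members higher in these settings, against 6.69%, 7.42% and 7.57% of entries. Without aged replicate 3, 16 members were called higher, against 609 of 29731 entries. With all 24 arrays in 1 fit 4 of 44 lung members tested were called higher, against 531 of 25773 entries. With no filter on dim probes 11 of 48 were called higher, against 304 of 45616 entries. The methods' t-test called 3 of 47 higher, against 99 of 30327 entries (unadjusted 40, against 7.61% of entries).

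In WAT the test called 0 of the 48 members, all tested, in either direction, against 2.01% of the 30063 entries called higher and 0.579% lower. Other settings called a few higher. With all 24 arrays in 1 fit these were 5 of 44 members tested (Cenpa, Birc5, Spc25, Cdca3 and Ndc80). As 2956 of 25773 entries were called higher in that fit, the members' share was near that of all entries. Normexp called 1 member (Cenpa), against 610 of 30063 entries, and quantile normalization 1 (Dlgap5), against 559 of 30063. Unadjusted, limma gave 22 members higher and 0 lower, against 9.86% of entries higher. The methods' t-test gave 9 higher unadjusted, against 8.8% of entries, and called 0 after adjustment. Per array, the median member stood at 0.04, -0.33 and 0.30 in young WAT and at 0.78, 0.24 and 1.06 in aged WAT. Aged replicate 2 lay below young replicate 3, so the ages overlapped. For 17 members all aged arrays lay above all young ones, against 13.7% of entries. The median change was 0.72 (quartiles 0.44 and 0.89), against -0.04 over all entries, and 45 of 48 members had a positive change, none of which passed the test. All 48 members were well above background on every WAT array, young ones included. In young livers 33 to 36 members were so, and in young kidneys 39 to 41.

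**Figure D1:**
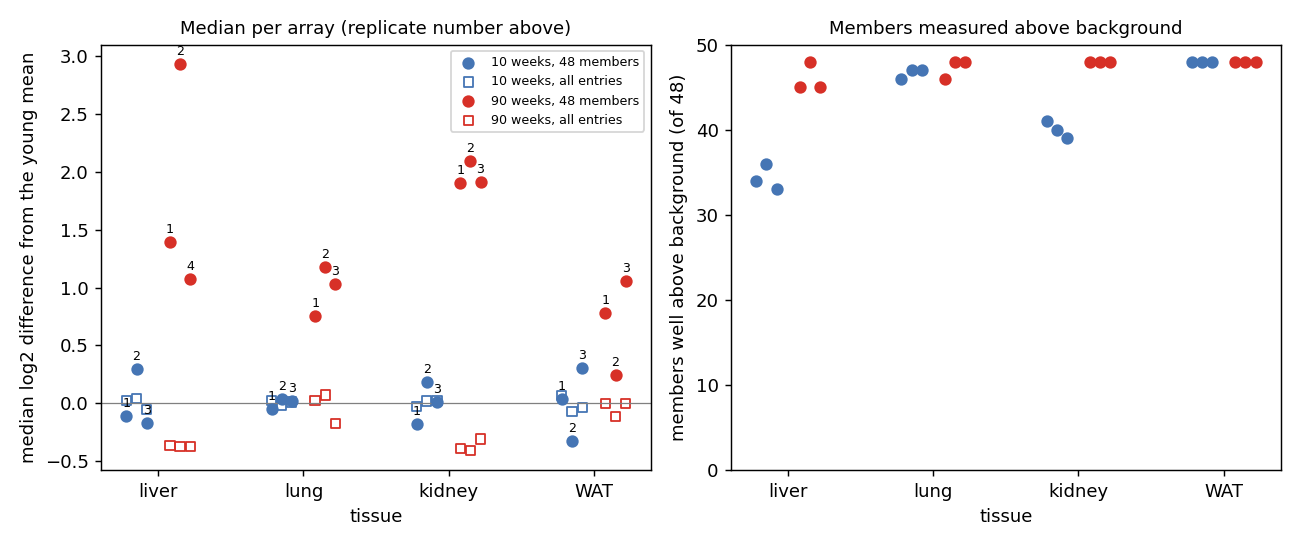
Left, the median over the 48 members (filled circles) and over all entries (open squares) of the log2 difference from the young mean of the tissue, 1 point per array with its replicate number; right, members well above background on each array. Aged arrays (red) lie above young ones (blue) in liver, lung and kidney and overlap with them in WAT.

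Across tissues, 16 members were called higher in 3 tissues (liver, lung and kidney), 17 in 2, 12 in 1 and 3 (Ect2, Nek2 and Kif2c) in none. No member was called in all 4. Single tissues called 10.5% (liver), 2.72% (lung), 20.6% (kidney) and 2.01% (WAT) of entries higher. How many of all entries were called in several tissues was not counted, so this tally has no background to be read against. Counting a tissue only where at least 1 young array was well above background, the numbers were 12 in 3 tissues, 17 in 2, 11 in 1 and 8 in none. In the kidney, 35 of the 42 members called higher stayed called under every alternative that gave a value. In liver and lung 0 members did so. The alternatives covered the background correction, scaling, filter, probe choice, model, test and each mouse left out in turn.

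**Figure D2:**
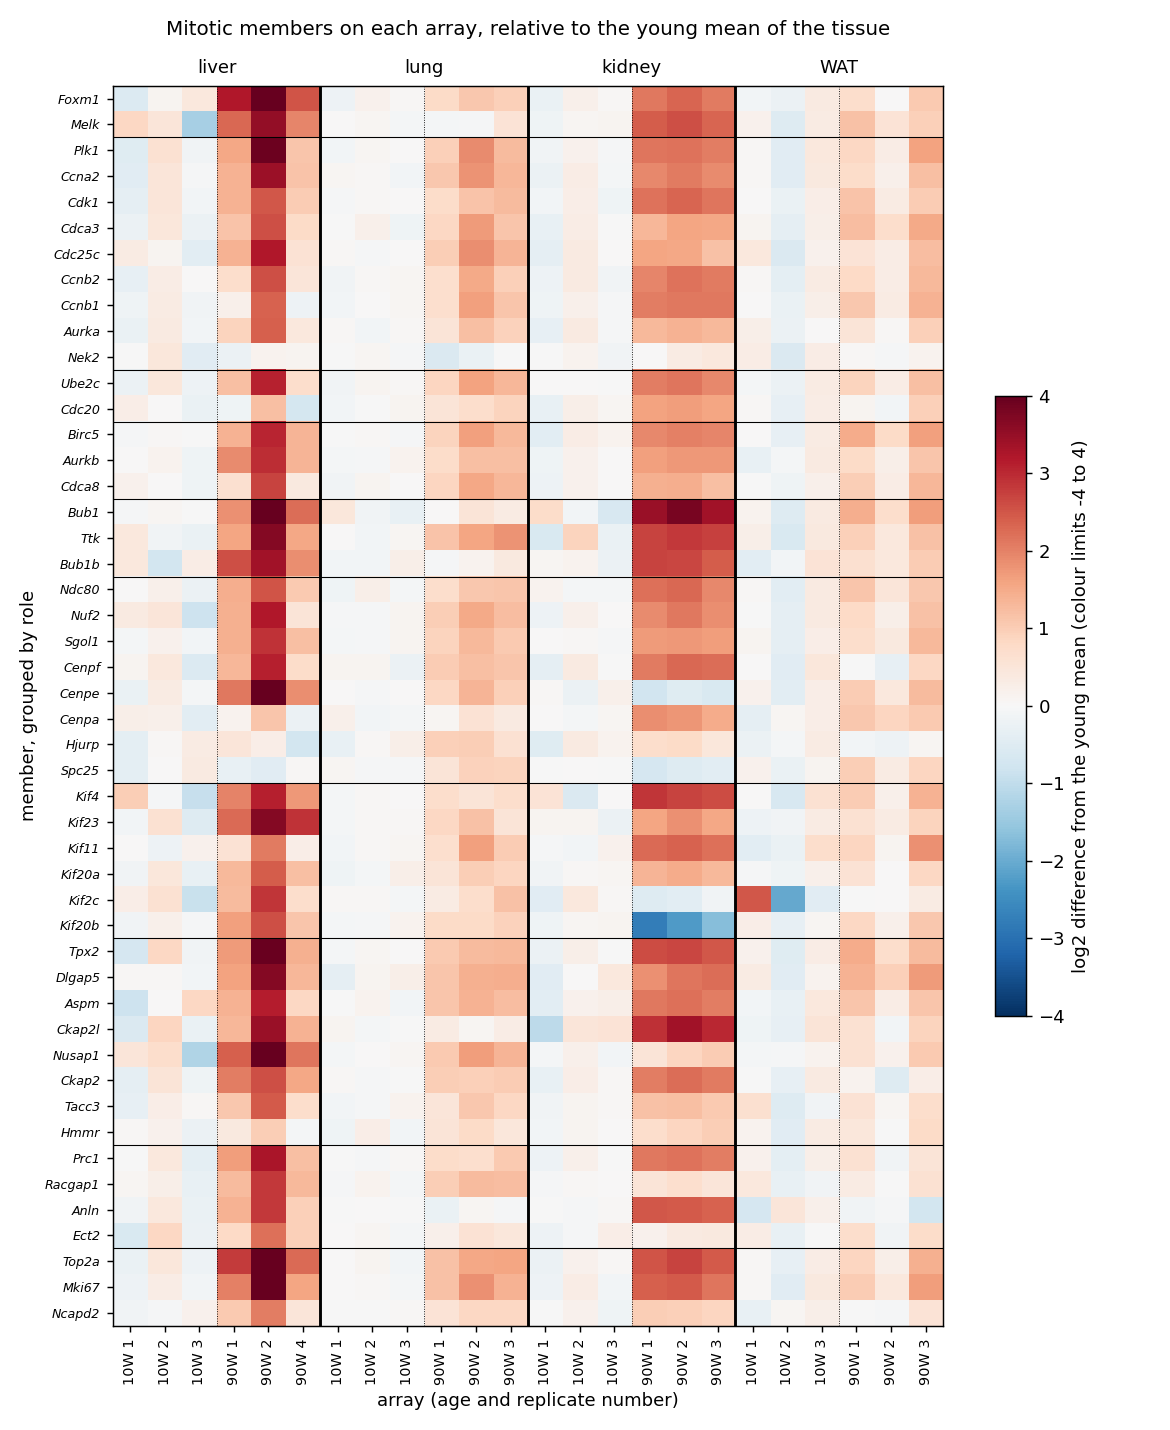
Each member (vertical axis, grouped by role) on each of the 24 arrays (horizontal axis, age and replicate), coloured by its log2 difference from the young mean of the tissue. Red fills the aged kidney columns apart from a few members, aged liver 2 is the deepest red of the liver columns, and WAT columns are pale.

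FOXM1 and MELK, its partner kinase, head the programme. Foxm1 read -5.51, -4.87 and -4.56 in young livers, none well above background, and -1.78, -0.54 and -2.46 in aged ones. Each aged liver was well above background and far from the young. The change was at least 8.25-fold (adjusted p = 0.00625). Such bounds, used for tested members where no array of the dimmer group was well above background, set the aged mean against the mean, over the dim arrays, of the higher of the probe's own value and the lowest signal well above background on that array. They hold for the processed signal alone, and normexp background correction gave smaller changes for every such member, for Foxm1 in the liver 0.97. Foxm1 read -2.75, -2.39 and -2.52 in young and -1.78, -1.46 and -1.62 in aged lungs, and -3.72, -3.24 and -3.42 against -1.36, -1.13 and -1.37 in kidneys. In both, the ages did not overlap, and the kidney gap was the wider. In WAT its values were -1.66, -1.76 and -1.19 in young and -0.82, -1.51 and -0.50 in aged mice, and the ages overlapped. Its WAT change was 0.59 (adjusted p = 0.362). Another Foxm1 probe changed by 0.72 in the lung, and was well above background on no young array and on 2 aged arrays in the liver, and on none and 3 in the kidney. Melk was at least 3.61-fold higher in aged livers (adjusted p = 0.0268), though by 0.47 with normexp and not called (0.142). It was higher by 2.45 in aged kidneys (adjusted p = 4.86e-05), but its lung change was 0.15 (adjusted p = 0.642).

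Among the cyclins and the kinases of mitotic entry, the kidney had 8 of 9 members called higher, the lung 5 and the liver 2. Of all entries tested, 20.6%, 2.72%, 10.5% and 2.01% were called higher in kidney, lung, liver and WAT. In the kidney 42.6% were called lower. These shares also apply to the counts of the other role groups below. Aurka, the kinase that matures the centrosome, read -1.49, -0.78 and -1.19 in young and 0.13, 0.24 and 0.14 in aged kidneys. Aged values were tight and all above the young. It rose by 1.32 (standard error 0.18, adjusted p = 0.00134). In livers Aurka read -1.08, -0.44 and -0.91 against 0.08, 1.56 and -0.40, and in lungs -0.70, -0.84 and -0.68 against -0.23, 0.45 and 0.18. Neither pair of groups overlapped, though aged liver 4 lay close to young liver 2. Both missed the threshold, with changes of 1.23 (adjusted p = 0.0975) and 0.87 (adjusted p = 0.0525). In WAT, Aurka read 0.52, 0.05 and 0.32 against 0.80, 0.35 and 1.26, with overlap (0.51, adjusted p = 0.374).

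Ccna2, a cyclin of S phase and mitosis, rose by 1.99 in the liver (adjusted p = 0.0471), 1.40 in the lung (0.0215) and 1.97 in the kidney (0.000207). Cdk1, the kinase that drives entry, rose by 1.63, 1.04 and 2.21 in the same order. Ccnb1 and Ccnb2, its mitotic cyclins, rose by 2.09 and 2.07 in the kidney, and in the liver changed by 0.78 and 1.25, short of the threshold. Ccnb1 in livers read -2.07, -1.56 and -2.03 against -1.69, 0.47 and -2.10, so that aged liver 2 alone stood clear of the young ones. Plk1, a kinase with roles from centrosome to cytokinesis, rose by 1.37 in the lung (adjusted p = 0.0362) and by 2.11 in the kidney (5.59e-05). Cdc25c, the phosphatase that switches CDK1 on, rose by 1.40 in the lung (adjusted p = 0.0270) and by 1.43 in the kidney (0.00169). Its kidney call held in 14 of 15 alternatives, with changes as low as 0.195. No young liver had Cdc25c well above background (at least 2.07-fold, adjusted p = 0.0757, not called). Cdca3, a trigger of mitotic entry, rose by 1.22 in the lung (adjusted p = 0.0430) and 1.49 in the kidney (0.000643). Nek2, a centrosome kinase, was called in no tissue. Its changes were 0.01, -0.29, 0.26 and 0.04 in liver, lung, kidney and WAT, and the ages overlapped in each. The liver value turned to -0.0068 with median centring and to -0.17 with another background correction.

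Cdc20, which activates the anaphase-promoting complex, and Ube2c, the enzyme that feeds it ubiquitin, were both called in lung and kidney and not in liver or WAT. For Cdc20 the liver was read from a different probe than the other tissues, so the changes given here cannot be compared between them. The interaction test over all 24 arrays, described below, read 1 probe in every tissue and did not call Cdc20 (adjusted p = 0.312). Cdc20 read -1.08, -0.54 and -0.70 in young kidneys and 0.84, 0.91 and 0.81 in aged ones. The aged kidneys lay together above the young. It rose by 1.63 (standard error 0.15, adjusted p = 0.000353). Lungs gave 0.07, 0.15 and 0.27 against 0.69, 0.87 and 1.04 for Cdc20 (0.71, adjusted p = 0.0333). Livers gave 0.05, -0.18 and -0.48 against -0.37, 1.01 and -0.90, and WAT 0.60, 0.22 and 0.85 against 0.66, 0.46 and 1.51. Ages overlapped in both of these tissues. The Cdc20 change in the liver was 0.11 (adjusted p = 0.869) from the probe read there and 1.24 from the probe read elsewhere, which was called with all 24 arrays in 1 fit (0.0344). Without aged replicate 2 the change from the probe read in the liver was -0.43. Ube2c rose by 1.26 in the lung (adjusted p = 0.0302) and 2.04 in the kidney (3.54e-05), and changed by 1.66 in the liver (0.0719).

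The chromosomal passenger complex corrects wrong attachments of chromosomes, and its 3 members were all called in the lung and the kidney. Birc5 (survivin), which brings the complex to the centromere, read -0.17, -0.07 and -0.15 in young livers and 1.27, 2.91 and 1.22 in aged ones. Young livers lay close together, the aged ones all above them, and aged liver 2 was highest. Birc5 rose by 1.93 (standard error 0.44, adjusted p = 0.0225). Its lung values were 0.26, 0.34 and 0.25 against 1.16, 1.92 and 1.57, and kidney values -0.75, -0.05 and -0.21 against 1.58, 1.68 and 1.62. Both sets were apart by age. The rises were 1.27 (adjusted p = 0.0262) and 1.97 (adjusted p = 0.000407). In WAT it read 1.17, 0.85 and 1.48 against 2.66, 1.92 and 2.81, again with no overlap. That change of 1.30 had an adjusted p of 0.0902. Aurkb, the kinase of the complex, rose by 2.06, 1.04 and 1.71 in liver, lung and kidney, called under 14 of 15 alternatives in the liver. Cdca8 (borealin) rose by 1.25 in the lung and 1.36 in the kidney, and its change of 1.25 in the liver was not called (adjusted p = 0.136).

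Checkpoint kinases hold the cell until every kinetochore is attached. Bub1b read -4.44, -5.60 and -4.58 in young livers, none well above background, and -2.29, -1.52 and -3.02 in aged ones. The aged livers were all measured and all higher, by at least 4.99-fold (adjusted p = 0.0104). With normexp the Bub1b change there was 0.56 and not called (0.104). In kidneys Bub1b read -5.01, -4.96 and -5.33 against -2.41, -2.43 and -2.68, and the gap was far wider than the spread (2.59, adjusted p = 6.39e-05). Of the young kidneys, 2 had it well above background. The kidney call held in 15 of 15 alternatives, with changes as low as 0.822. Lungs gave -2.34, -2.34 and -1.97 against -2.26, -2.07 and -1.82, and WAT -2.85, -2.54 and -1.89 against -1.80, -2.0 and -1.40. The ages overlapped in both. Those changes were 0.17 (adjusted p = 0.533) and 0.69 (adjusted p = 0.285). In aged kidneys Bub1 was higher by at least 4.5-fold (adjusted p = 0.000461) and with normexp by 0.44 on the log2 scale, and its lung change was 0.28 (0.463). In the liver Bub1 was not tested, since only aged replicates 2 and 4 were well above background, and aged liver 2 read -1.61 against -4.30 in aged liver 4. Ttk (MPS1), the kinase at the top of the checkpoint, was higher by at least 2.03-fold in aged kidneys (adjusted p = 0.00133). Ttk was not tested in liver or lung, where no young array and 1 and 2 aged arrays were well above background. Under other settings the Ttk call in the kidney held in 10 of 11, and with normexp it was lost (0.095, adjusted p = 0.405).

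Kinetochore and centromere genes included 2 of the 3 members called lower. Of 8 members, the kidney had 6 called higher and 2 lower, the lung 6 higher, the liver 3 and WAT 0. Those called higher include Hjurp in the kidney and Ndc80 in the liver, which passed the filter through the aged arrays alone. Spc25, a subunit of the NDC80 complex that grips microtubules, read 3.42, 3.47 and 3.45 in young kidneys and 2.77, 2.93 and 3.02 in aged ones. All aged kidneys lay below all young ones, which were nearly equal. Its level fell by 0.54 (standard error 0.089, adjusted p = 0.00274). The other Spc25 probe changed by -0.51 there. In lungs Spc25 read -0.56, -0.66 and -0.67 against -0.12, 0.28 and 0.27, higher in each aged lung (0.77, adjusted p = 0.0343). Livers gave 1.82, 2.24 and 2.58 against 1.91, 1.77 and 2.25, and WAT 0.72, 0.30 and 0.66 against 1.54, 0.90 and 1.40. The livers overlapped and the adipose samples did not. Those changes were -0.24 (adjusted p = 0.480) and 0.72 (adjusted p = 0.183).

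Cenpe, a kinesin at the kinetochore that lines up chromosomes, read 0.03, -0.24 and 0.20 in young kidneys and -0.76, -0.49 and -0.60 in aged ones. The aged kidneys were all lower. The fall was by 0.61 (standard error 0.14, adjusted p = 0.00962). With spike-in scaling the kidney changes were -0.23 for Cenpe (adjusted p = 0.314) and -0.16 for Spc25 (adjusted p = 0.442), neither called. In livers Cenpe read -3.69, -3.09 and -3.51 against -1.31, 0.57 and -1.56, apart by age and highest in aged liver 2. It rose by 2.66 there (adjusted p = 0.0162) and by 1.04 in the lung (adjusted p = 0.0247), and changed by 0.90 in WAT (0.191). Ndc80, which forms the complex with Spc25, rose in the lung by 0.97 (adjusted p = 0.0315), in the kidney by 2.14 (9.87e-05) and in the liver at least 2.68-fold (0.0203). With normexp the Ndc80 changes were 0.46, 0.41 and 0.12 in that order, and only that of the kidney was called. Nuf2, its partner, rose by 1.24 in the lung and 1.95 in the kidney. Sgol1 (shugoshin), which guards cohesion at the centromere, rose by 1.85, 1.08 and 1.71 in liver, lung and kidney. Cenpf rose by 1.11 in the lung and 2.20 in the kidney, and Cenpa, the histone H3 variant of centromeres, by 1.71 in the kidney.

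Hjurp, the chaperone that loads CENP-A, barely passed in the kidney, at least 1.11-fold (adjusted p = 0.0478), where no young array was well above background. That call held in 3 of 12 alternatives, with changes from -0.28 to 1.02, and with normexp Hjurp was called lower there (adjusted p = 0.0450). In livers Hjurp read -4.33, -3.90 and -3.60 against -3.45, -3.67 and -4.67, with no separation (0.01, adjusted p = 0.984). Its lung change was 0.85 (adjusted p = 0.0517) and its WAT change -0.09, which turned to 0.059 with quantile normalization. In the liver the sign of Hjurp turned with median centring, at -0.0035.

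Of the 6 kinesin motors, 4 were called higher in the kidney, 4 of 5 tested in the liver and 3 in the lung. These include Kif11 and Kif4 in the kidney and Kif23 and Kif4 in the liver, which passed the filter through the aged arrays alone. Kif20b, a motor of late cytokinesis, was the member with the largest fall in any tissue. It read 1.17, 1.41 and 1.45 in young kidneys and -1.42, -0.93 and -0.35 in aged ones. The aged kidneys were all far below. The level fell by 2.25 (standard error 0.27, adjusted p = 0.000810), called in 15 of 15 alternatives. The other Kif20b probe, for the same transcript and well above background in 2 young and 3 aged kidneys, changed by 0.87 in the opposite direction. Elsewhere both probes gave positive changes. Kif20b read -3.58, -3.23 and -3.48 against -1.78, -0.86 and -2.33 in livers, and -2.64, -2.60 and -2.42 against -1.79, -1.77 and -1.63 in lungs. No overlap was seen in either. It rose by 1.77 in the liver (adjusted p = 0.0158) and 0.82 in the lung (adjusted p = 0.0179). In WAT, Kif20b gave -1.79, -2.36 and -1.97 against -1.21, -1.84 and -0.95, with overlap (0.71, adjusted p = 0.257).

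Kif23, which bundles the midzone with RACGAP1, was higher by at least 5.58-fold in aged livers (adjusted p = 0.00574), though by 0.72 with normexp and not called (0.0520). It rose by 1.66 in the kidney, and by 0.83 in the lung (adjusted p = 0.0498). Kif4, a motor bound to chromosome arms, was at least 2.03-fold higher in the liver and at least 3.74-fold in the kidney, and rose by 0.64 in the lung (adjusted p = 0.0259). With normexp the Kif4 changes were 0.079, 0.39 and 0.43 in that order, and only that of the kidney was called. Kif11, which pushes the spindle poles apart, was higher by at least 3.70-fold in aged kidneys (adjusted p = 4.55e-05), though by 0.27 with normexp and not called (0.0581). It changed by 0.97 in the liver (0.143) and 1.11 in the lung (0.0598). Kif20a, needed for cytokinesis, rose by 1.64 in the liver and 1.38 in the kidney. Kif2c (MCAK), which takes microtubules apart at the centromere, was called nowhere and its probes disagreed. In the kidney the probe read there changed by -0.36 (adjusted p = 0.217), 0.02 with spike-in scaling, -0.44 and called lower with normexp (0.0156), and 1.47 and called higher with the mean of its probes (0.00101). The other Kif2c probe was well above background there on no young and 3 aged arrays. In WAT its young values of -1.09, -5.62 and -4.03 were far apart, and aged WAT gave -3.58, -3.57 and -3.27.

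**Figure D3:**
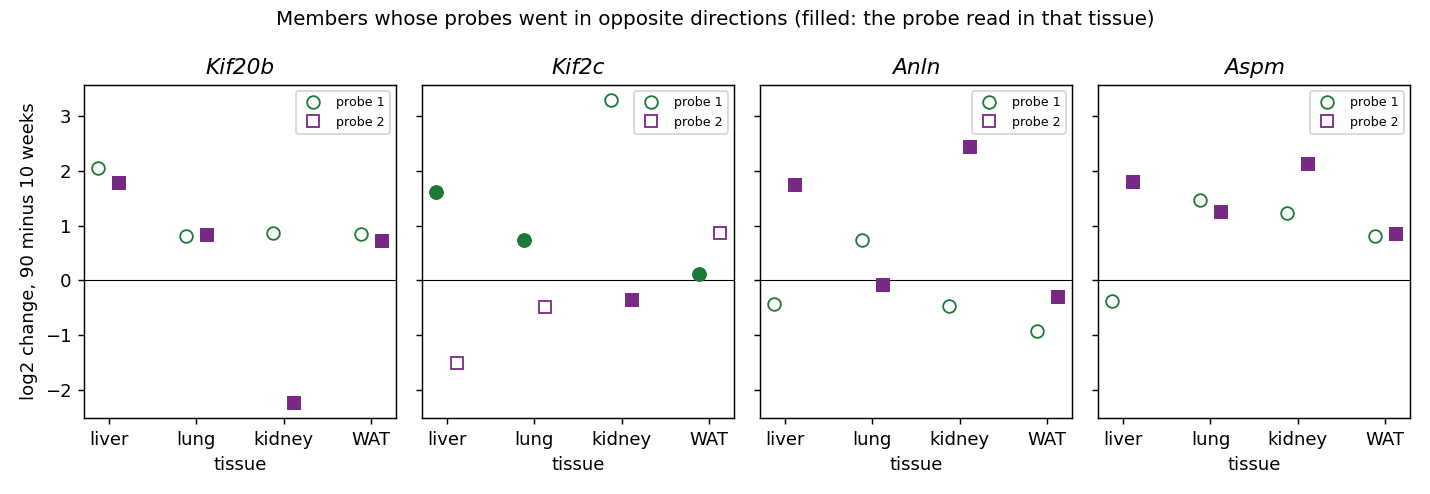
Log2 change (vertical axis, 90 minus 10 weeks) of each probe of Kif20b, Kif2c, Anln and Aspm in the 4 tissues (horizontal axis), the members with probes of opposite sign in at least 1 tissue; filled symbols mark the probe read in that tissue. For Kif20b the probes part in the kidney alone, at -2.25 and 0.87.

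Of 22 members with several probes, 3 had probes of opposite sign in the liver (Kif2c, Aspm and Anln), 2 in the lung (Kif2c and Anln), 3 in the kidney (Kif20b, Kif2c and Anln) and 0 in WAT. The other Anln probe was well above background on 1 young WAT array and on no other array. The other Aspm probe was so on no array, and the Kif2c probe not read in liver and lung on 1 young liver array and no lung array. In the kidney, both probes of Kif20b and of Kif2c were well above background on all 3 aged arrays.

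All 8 members that build the spindle or bind its microtubules were called higher in the kidney. There Ckap2l and Dlgap5 passed the filter through the aged arrays alone. The lung had 5 called higher, the liver 3 of 7 tested and WAT 0. Tacc3, which steadies microtubules at the poles, read -1.12, -0.87 and -0.94 in young kidneys and 0.18, 0.23 and 0.08 in aged ones. The groups were tight and apart. Tacc3 rose by 1.14 (standard error 0.097, adjusted p = 0.000303). In livers it read -1.25, -0.68 and -0.88 against 0.14, 1.52 and -0.23, and in WAT 1.24, 0.09 and 0.45 against 1.17, 0.65 and 1.28. Livers were apart by age, and WAT overlapped. Those changes were 1.41 (adjusted p = 0.0527) and 0.44 (adjusted p = 0.525). Lungs gave -0.60, -0.53 and -0.34 against a value just under 0, 0.59 and 0.34 (0.80, adjusted p = 0.0549).

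Tpx2, which activates AURKA on the spindle, rose by 2.36 in the liver (adjusted p = 0.0465), 1.19 in the lung (0.0106) and 2.59 in the kidney (7.07e-05). Only 1 young liver had Tpx2 well above background. The liver call held in 7 of 15 alternatives, with changes as low as 0.587. Nusap1, a microtubule bundler, rose in the liver by 3.05 (standard error 0.77, adjusted p = 0.0292). Its lung rise was 1.36 (0.0178) and its kidney rise 0.80 (0.00553). Nusap1 in livers read -4.10, -3.87 and -5.79 against -2.20, 0.05 and -2.46, with young replicate 3 not well above background and aged replicate 2 far above the rest. Ckap2 rose by 2.06, 0.98 and 2.12 in liver, lung and kidney. In WAT the Ckap2 change was -0.03. In aged kidneys Ckap2l was higher by at least 4.71-fold (adjusted p = 0.00150) and with normexp by 0.49 on the log2 scale, and its lung change was 0.24 (0.219). Dlgap5 (HURP) was higher by at least 2.55-fold in aged kidneys and rose by 1.33 in the lung (adjusted p = 0.0226). With normexp the Dlgap5 changes were 0.047 and 0.50, neither called. Dlgap5 gave the largest WAT change of the members, 1.35 (adjusted p = 0.0795). Dlgap5 read -4.45, -5.22 and -4.62 in young and -3.37, -3.81 and -3.05 in aged WAT, without overlap. Next in WAT after Dlgap5 and Birc5 came Bub1 (1.28, adjusted p = 0.124), Tpx2 (1.16, 0.119) and Cdca3 (1.15, 0.104). Aspm, which focuses the poles, rose by 1.24 in the lung and 2.12 in the kidney, and Hmmr by 0.85 in the kidney. The other Hmmr probes, well above background in no young kidney, changed by 2.69 and 2.77 there.

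Among the cytokinesis genes, 3 of 4 were called higher in the liver and the kidney and 2 in the lung. Anln (anillin), the scaffold of the contractile ring, read -2.52, -2.57 and -2.46 in young kidneys and -0.04, -0.06 and -0.17 in aged ones. Both groups were within a narrow band and far from each other. It rose by 2.43 (standard error 0.079), and its adjusted p of 1.86e-05 was the smallest of any member in any tissue. Livers gave -2.37, -1.80 and -2.48 against -0.82, 0.63 and -1.25 for Anln, apart by age (1.73, adjusted p = 0.0375). In lungs it read -0.11, -0.07 and -0.11 against -0.38, -0.01 and -0.14, and in WAT 0.99, 2.15 and 1.89 against 1.54, 1.62 and 0.94. The ages overlapped in both. Anln changed by -0.08 in the lung (adjusted p = 0.693) and by -0.31 in WAT (0.680). Prc1, which crosslinks the midzone, rose by 2.04, 0.82 and 2.10 in liver, lung and kidney. Racgap1, which with KIF23 sets the division plane, rose by 1.80, 1.17 and 0.57. With the mean of its probes the Racgap1 rises were 1.80, 1.33 and 1.29. Ect2, the exchange factor that activates RhoA at the midzone, was called in no tissue, with changes of 1.32 (adjusted p = 0.0800), 0.42, 0.30 and 0.43 in liver, lung, kidney and WAT.

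The 3 genes of mitotic chromosome structure were called higher in the kidney and the lung, and all but Ncapd2 in the liver. Ncapd2, a condensin subunit, read 0.24, 0.43 and 0.09 in young and 1.23, 1.21 and 1.1 in aged kidneys, and 0.40, 0.42 and 0.47 against 0.98, 1.26 and 1.26 in lungs. No array of one age reached the other. The rises were 0.93 (adjusted p = 0.000750) and 0.74 (adjusted p = 0.0247). Ncapd2 in livers read -0.19, -0.11 and 0.11 against 0.97, 1.98 and 0.41, apart by age (1.19, adjusted p = 0.0556), and in WAT 1.37, 1.73 and 1.89 against 1.65, 1.62 and 2.21, overlapping (0.17, adjusted p = 0.741). Mki67, the coat protein of mitotic chromosomes that pathologists stain as Ki-67, read -1.55, -1.04 and -1.44 in young livers and 0.68, 3.04 and 0.23 in aged ones. Aged liver 2 stood furthest out. Mki67 rose in the liver by 2.66 (standard error 0.68, adjusted p = 0.0307). Its lung rise was 1.48 (0.0166), its kidney rise 2.33 (0.000151) and its WAT change 1.03 (0.218). Top2a, which untangles sister chromatids, read -2.99, -2.26 and -2.93 in young and 0.08, 1.76 and -0.44 in aged livers. The aged livers were all higher. It rose by 3.19 (standard error 0.55, adjusted p = 0.0103), called in 14 of 15 alternatives. Top2a rose by 1.44 in the lung (adjusted p = 0.0117) and by 2.55 in the kidney (6.73e-05). In WAT, Top2a gave -0.20, -0.57 and 0.05 against 0.61, -0.00 and 1.17, with overlap (0.83, adjusted p = 0.258).

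**Figure D4:**
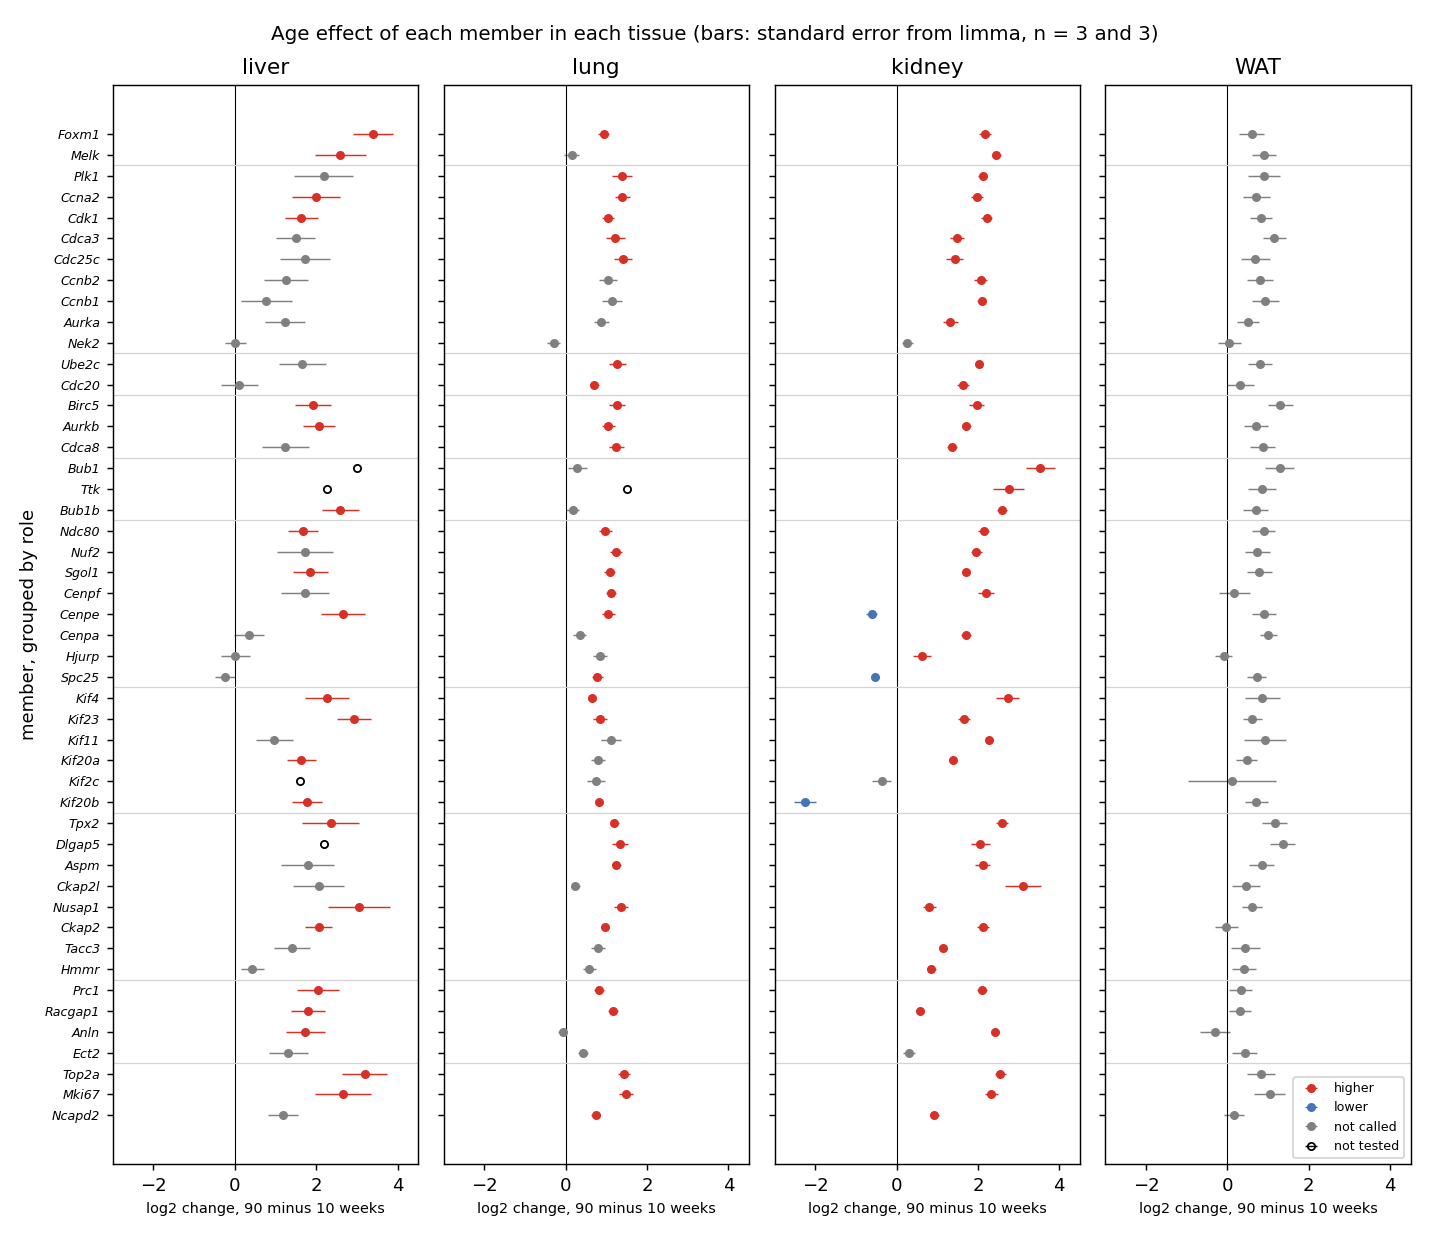
Log2 change (horizontal axis, 90 minus 10 weeks) of each member (vertical axis, grouped by role) in each tissue, with limma's standard error; red was called higher, blue lower, grey not called, open not tested. The kidney shows 42 red and 3 blue points and WAT neither.

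Whether the age effect differed between tissues was tested by limma's interaction over all 24 arrays. It covered 44 members with a probe that passed the filter in every tissue. The interaction was called for 19 of them, against 37.5% of the 25773 entries tested. Of the 19, Foxm1, Melk, Bub1b, Kif23, Kif4, Ndc80 and Ckap2l had no young liver well above background, and Kif4 and Ckap2l no young kidney. The size of their changes there is not known, and the count was not taken without them. With spike-in scaling it was called for 21 of 44 members, against 16.3% of entries, and with normexp background correction for 7 of 44, against 42.7%. How the members compare with all entries therefore depended on the processing. Kif20b had the smallest adjusted p (1.94e-05), with its fall in the kidney and rises in liver and lung. Foxm1 was among the 19 (adjusted p = 0.00112), and so were Cenpe (0.00129) and Spc25 (0.00143). Leaving out replicates moved the count, to 10 without young replicate 1, 12 without young replicate 2 and 11 without young replicate 3 of every tissue, each of 44, against 32.5%, 21.2% and 22.8% of entries. Without aged replicate 1 it was 8 of 34 (23.8% of entries), without aged replicate 2 it was 12 of 34 (28.5%), without aged replicate 3 it was 15 of 40 (33.8%) and without aged replicate 4 it was 17 of 36 (39.2%).

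Other genes of mitosis, a list of 74, had positive median changes in every tissue, smaller than those of the members. In the liver 24 of 64 tested were called higher, in the lung 22 of 73, in the kidney 53 of 74 and in WAT 0 of 73 (19 unadjusted by limma), and 10 were called lower, all in the kidney. Of all entries tested, 10.5%, 2.72%, 20.6% and 2.01% were called higher in liver, lung, kidney and WAT. Shares called lower were 17%, 2.89%, 42.6% and 0.579% in the same order, and these shares also apply to the lists that follow. Median changes over all 74 were 0.96, 0.41, 0.82 and 0.44 in liver, lung, kidney and WAT. In the liver, Knl1, the kinetochore scaffold, was at least 4.66-fold higher (adjusted p = 0.0274), Cenph at least 4.34-fold (0.00607), and Espl1 (separase) higher by 3.17 (0.00582). Ncapg, a condensin subunit, rose by 1.77 in the lung (adjusted p = 0.00855), with Ska1 at 1.54 and Kif18b at 1.48. In the kidney Iqgap3 rose by 3.12 (adjusted p = 0.000127), Psrc1 by 3.07 and Kif15 at least 2.21-fold. WAT had its largest changes in Cenph (1.30, adjusted p = 0.109), Kifc1 (1.15, not tested) and Incenp (1.15, adjusted p = 0.0728).

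Genes of DNA replication, which act before mitosis, had 22 tested in every tissue, with 12 called higher for the liver, 6 for the lung, 17 for the kidney (2 lower) and 2 for WAT. Their median changes over 23 genes were 0.76, 0.44, 0.60 and 0.71. Uhrf1, which keeps DNA methylation at the fork, rose by 3.21 in the liver (adjusted p = 0.00528) and 2.73 in the kidney (3.00e-05). Mcm5, of the replicative helicase, rose by 2.25 in the liver (adjusted p = 0.00396), and Mcm3 by 1.67 in the kidney. Mcm10, which helps to start the helicase, changed by -1.90 in the liver (adjusted p = 0.0811), rose by 1.29 in the lung (0.0338) and changed by 1.34 in WAT (0.0914). In the lung Ccne1, a cyclin of S phase entry, rose by 1.24, and Tk1, a thymidine kinase, changed by 1.00 (adjusted p = 0.0667). Ccne1 rose by 1.72 in the kidney. In WAT the licensing factor Cdt1 rose by 2.08 (adjusted p = 0.0146), and Tk1 changed by 1.6 (0.0523).

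The regulators MuvB, MYB and E2F, 18 genes, had median changes near 0. They were called higher and lower for 1 and 1 in the liver, 1 and 0 in the lung, 5 and 7 in the kidney and 1 and 0 in WAT, with medians of -0.08, 0.03, 0.00 and 0.20. In the kidney 20.6% of all entries were called higher and 42.6% lower. Mybl2 (B-MYB) rose by 0.62 in the lung (adjusted p = 0.0366) and 0.71 in the kidney (0.00128), and changed by 0.90 in the liver (0.201) and 1.1 in WAT (0.175). E2f8 rose by 1.97 in the kidney (adjusted p = 7.13e-05) and changed by 1.33 in the lung (0.0583) and 1.35 in WAT (0.207). Rbl1 (p107) rose by 1.95 in the liver (adjusted p = 0.00572), where E2f2 changed by 1.29 (0.253). Lin52, a MuvB subunit, rose in the kidney by 0.99 and in WAT by 1.56 (adjusted p = 0.0493) and changed by 1.67 in the lung (0.202). E2f5 fell by 0.92 on the log2 scale in the kidney (adjusted p = 0.000821).

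Some marker lists of blood and stromal cells were called higher in tissues where members rose and others were not, and their part in the result was not tested. Macrophage markers were called higher for 5 of 5 in the liver and the kidney, 2 of 5 in WAT and 0 in the lung (0 at an unadjusted p under 0.05 too). Their summed signal, as a multiple of the 75th percentile, was 48.4, 53.3 and 40.1 in young and 200, 189 and 167 in aged livers, with Csf1r the brightest. In kidneys it was 19.7, 20.9 and 22.8 against 94.1, 76.0 and 61.5, and in WAT 36.8, 111 and 87.5 against 477, 218 and 308. These groups did not overlap. Lungs gave 127, 130 and 161 against 154, 105 and 222, with Lyz2 the brightest, and overlapped. All 5 macrophage markers were well above background on every array.

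T cell markers were called higher for 4 of 5 in lung and kidney, 2 in liver and 3 in WAT, and 1 was lower in the kidney. Their sum was 9.91, 10.4 and 9.38 in young and 17.9, 25.6 and 21.6 in aged lungs, and 4.97, 5.37 and 5.38 against 11.1, 12.4 and 14.6 in WAT. Both tissues separated by age, with Cd4 or Cd3e the brightest. In kidneys the T cell sum was 7.98, 6.70 and 7.59 against 11.1, 9.49 and 9.22, and in livers 51.4, 60.3 and 42.8 against 40.4, 38.0 and 38.2, where Cd4 was the brightest and the aged sum was lower. B cell markers were called higher for 1, 0, 4 and 4 of 5 in liver, lung, kidney and WAT, and plasma cell markers for 2 of 4 tested, 0, 4 and 3 of 5. The B cell sum in kidneys was 1.24, 0.831 and 0.938 against 3.43, 3.39 and 2.44, and in WAT 1.39, 1.35 and 2.24 against 9.25, 12.5 and 7.56. Neither overlapped. In aged livers it was 7.53, 2.88 and 5.67, lowest on the array with the highest members, and in aged lungs 29.8, 3.66 and 23.2.

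Neutrophil precursor markers (Ngp, Camp, Ltf, Elane, Mpo, Prtn3 and Ctsg) were high on single aged arrays. Their sum was 4.37, 3.18 and 2.99 in young and 4.70, 591 and 4.95 in aged livers, with Mpo the brightest in aged liver 2. In lungs it was 12.2, 11.9 and 9.15 against 7.33, 328 and 11.5, and in WAT 9.23, 3.02 and 24 against 3.26, 2.47 and 321, with Camp the brightest on both high arrays. So aged liver 2, aged lung 2 and aged WAT 3 stood apart, the same arrays that held the highest member median of their tissue. Without aged liver 2 the median change of all members was 1.25 in place of 1.75. Then 18 of 36 tested were called higher, and all 16 of the called members still tested stayed called. Without aged lung 2 these were 0.89 and 30, and without aged WAT 3 the median was 0.52. In kidneys, where most members rose, the precursor sum was 2.47, 2.05 and 2.08 in young and 1.65, 1.41 and 1.42 in aged mice, lower in every aged array. The precursor list was called higher for 1 of 7 in the liver and in the lung, 1 of 6 in the kidney (2 lower) and 0 of 6 in WAT, and at an unadjusted p under 0.05 for 4, 4, 2 and 0.

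**Figure D5:**
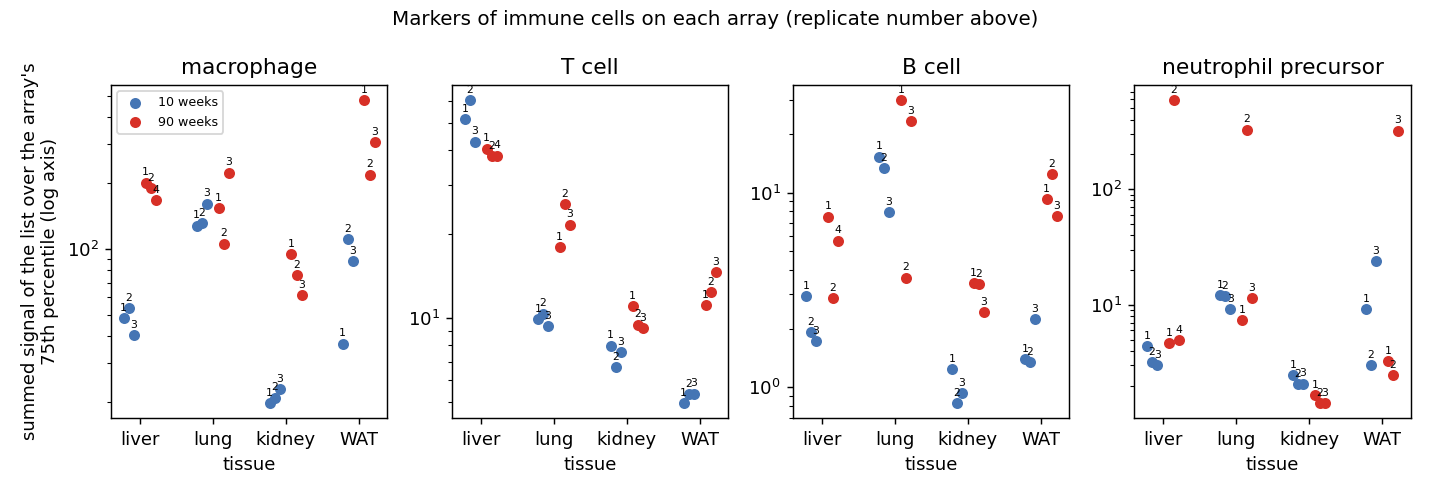
Summed signal of 4 marker lists over the array's 75th percentile (vertical axis, log scale) on each array, by tissue (horizontal axis) and age (blue 10 weeks, red 90 weeks), with replicate numbers. The macrophage sum is higher in aged liver, kidney and WAT, and the neutrophil precursor sum is high in aged liver 2, aged lung 2 and aged WAT 3.

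Mature neutrophil markers (4 of 5 with a probe) summed to 2.89, 1.51 and 6.94 in young and 25.2, 1070 and 15.5 in aged livers, with S100a9 the brightest, and were called higher for 0, 0, 4 and 0 of 4 in liver, lung, kidney and WAT (4, 4, 4 and 1 unadjusted). Megakaryocyte markers were called higher for 1, 3, 1 and 0 of 4 and lower for 2 in the kidney, and erythroid precursor markers higher for 1, 1, 0 and 0 of 4 tested and lower for 2 in the kidney. Fibroblast markers were called higher for 4 of 4 in the liver and the kidney and 0 in lung and WAT (0 and 1 unadjusted). Their sum in kidneys was 16.3, 14.0 and 14.1 in young and 88.0, 83.5 and 64.8 in aged mice, and in lungs 116, 117 and 89.8 against 50.5, 40.2 and 59.8. Endothelial markers were called higher for 1 of 4 in the liver and lower for 1 in the kidney. Of the tissues' own cells, hepatocyte markers were called lower for 1 of 6 in the liver, tubule markers for 5 of 6 in the kidney, and epithelial markers in the lung and adipocyte markers in WAT for 0 of 6 in either direction. Outside their tissue, adipocyte markers were called higher for 0 and lower for 3 of 6 in the lung, 4 and 1 of 6 in the kidney and 1 and 1 of 4 in the liver. Hepatocyte markers summed to 245 in aged lung 1, with Alb the brightest, against at most 19.6 in the other lungs. Aged lung 1 had the lowest member median of the aged lungs.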

How the data were processed

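Processed signal intensity was taken as deposited (Feature Extraction 11.0.1.1, per the file headers), put on the log2 scale and set relative to each array's 75th percentile over probes that are not controls. Control spots were left out and repeated spots of a probe averaged. Probes were matched to gene symbols through RefSeq transcripts, which covered 58.3% of 56605 probes. An entry was tested if well above background on at least 3 of 6 arrays, with limma 3.58.1 in R 4.3.3, Benjamini-Hochberg adjustment within each tissue, and 0.05 as threshold. By a rule written before the files were read, array values were given for Foxm1 and for the member of each role with the highest mean level over all arrays. By the same rule, changes were given in each tissue for members called lower, the 5 largest and the 3 smallest, and for the 3 largest of each other pathway list. Array values of other members were chosen after they were seen. The members and the marker and pathway lists (other mitosis genes, MuvB, MYB and E2F regulators, DNA replication genes, cell type markers) were chosen with earlier results of these data known. Spike-in scaling (279 spots) and median centring were added after seeing the data. Ly6g had no matched probe.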

Additional observations from a re-analysis of the deposited data

Results flagged for a closer look

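The results here are members whose age effect differed between the 4 tissues by limma's interaction test over all 24 arrays, with the adjusted p over the 25773 entries tested. A difference between tissues is why they are listed, and its cause was not tested. They are 19 of 44 members tested, where 37.5% of all entries tested were called. With normexp background correction 7 of 44 were called, against 42.7%, and with spike-in scaling 21, against 16.3%. Kif20b (adjusted p = 1.94e-05), Cenpe (0.00129) and Spc25 (0.00143) were called lower in the kidney and higher in the lung, Kif20b and Cenpe also higher in the liver. For Kif20b the other probe gave a positive change in the kidney, and with spike-in scaling neither Cenpe nor Spc25 was called there. Ckap2 (0.000475) and Anln (0.000669) had negative changes in WAT, where neither was called, and rose in liver and kidney, Ckap2 also in the lung. The WAT change of Ckap2 was -0.03 and ranged from -0.19 to 0.21 over the alternatives, so it had no clear sign. Bub1b (0.000680), Melk (0.00768) and Ckap2l (0.00898) rose in the kidney and changed little in the lung. No young liver had these 3 well above background, nor any young kidney Ckap2l, so the size of those changes is not known. Foxm1 (0.00112), Kif23 (0.00119), Top2a (0.00924), Prc1 (0.0162), Kif4 (0.0225), Ndc80 (0.0422), Aurkb (0.0451) and Cdk1 (0.0458) were called higher in liver, lung and kidney, with larger measured changes in liver and kidney than in the lung. No young liver had Foxm1, Kif23, Kif4 or Ndc80 well above background, nor any young kidney Kif4, so the size of those changes is not known. The order also depended on the background correction: with normexp the changes of Kif4 (0.079, 0.43 and 0.39) and Ndc80 (0.12, 0.46 and 0.41) were largest in the lung, and that of Cdk1 was smaller in the liver (0.75) than in the lung (0.85). Cenpa (0.0155) was called in the kidney alone. Racgap1 (0.0322) and Nusap1 (0.0325) were called in the same 3 tissues, with smaller changes in the kidney than in the liver and lung. For Racgap1 the mean of its probes left the kidney change the smallest, but close to that of the lung (1.29 against 1.33). Its other probe changed more in the kidney than in the lung, though no young kidney had that probe well above background.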

How the results depend on the processing

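With 3 mice per age and tissue, and tissue bound to slide, the liver and lung counts depend on single arrays and on the test. RNA of whole tissue was measured, so cell numbers and RNA per cell were not separated. Spike-in scaling and median centring were chosen after seeing the data. The cause of any difference between settings was not tested. Of the gene results, 605 stayed the same, 68 were weaker, 24 stronger and 14 reversed, and of the summary results 144 stayed the same and 32 moved.

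Normexp background correction (offset 50) gave 12 members called higher in the liver in place of 22, 5 called lower in the kidney in place of 3, 1 called higher in WAT in place of 0, and 7 in place of 19 whose age effect differed between tissues. It lowered the median change of all members to 0.71 in the liver, 0.74 in the lung and 0.95 in the kidney. Quantile normalization gave 1 member called higher in WAT. With no filter on dim probes 11 were called higher in the lung in place of 30, against 304 of 45616 entries. With all 24 arrays in 1 fit the liver had 37 called higher, the lung 4 and WAT 5. Of 25773 entries, 3632, 531 and 2956 were called higher in the same order. The methods' t-test called 1 higher in the liver and 3 in the lung, against 1321 of 27906 and 99 of 30327 entries. Spike-in scaling gave 36 called higher in the liver, 1 called lower in the kidney and a kidney median of 2.35.

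The replicate number taken as a block (pairing) gave 14 members called higher in the liver and 0 in the lung. Of all entries, 1068 of 27906 in the liver and 1 of 30327 in the lung were called higher. Unadjusted, limma with the block gave 36 and 40 members higher, against 12.8% and 8.82% of entries. The animals of the 2 ages are different mice, and correlations of replicates with the same number ranged around 0 as did those with different numbers (from -0.19 to 0.25 over all), so within a tissue the numbers did not pair young with aged mice. Whether a number marks 1 mouse in several tissues was not tested, and the fit over 24 arrays took all arrays as separate. Under the block the Nek2 change in the liver was -0.26.

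Leaving out 1 mouse at a time, members called higher in the liver ranged from 8 to 24 and in the lung from 0 to 36. In the liver 8 were called without young replicate 1, 9 without young replicate 2, 9 without young replicate 3, 11 without aged replicate 1, 18 without aged replicate 2 and 24 without aged replicate 4. Leaving out an aged liver also cut the members tested from 44 to 36, with 16 of the called members among them, of which 11, 16 and 16 stayed called. In the lung 0, 0 and 4 were called without young replicates 1, 2 and 3. Entries called higher there were then 1 of 29817, 17 of 29619 and 140 of 29808. Lung members called higher were 36, 30 and 16 without aged replicates 1, 2 and 3. In the kidney the count called higher ranged from 35 to 42 and that called lower from 3 to 4, and in WAT both were 0 throughout. Leaving out an aged kidney cut the members tested from 48 to 41, and all 38 called members still tested stayed called. The median change ranged from 1.25 to 2.20 in the liver, 0.89 to 1.13 in the lung, 1.84 to 2.06 in the kidney and 0.52 to 0.96 in WAT. Members whose age effect differed between tissues ranged from 8 to 17, with 10, 12 and 11 without young replicates 1, 2 and 3, and 8, 12, 15 and 17 without aged replicates 1, 2, 3 and 4.

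Most signs that turned were of changes near 0, but not all. Hjurp in the kidney, called higher at 0.63, became -0.28 with normexp and was called lower (adjusted p = 0.0450). Kif2c in the kidney went from -0.36 to 1.47 with the mean of its probes, called higher (0.00101), and to 0.024 with spike-in scaling. Without aged replicate 2 Ccnb1 in the liver went from 0.78 to -0.011 and Cenpa from 0.34 to -0.051. In WAT the signs of Kif2c, Nek2 and Cenpf turned too, to -0.91, -0.25 and -0.17 at the lowest with 1 mouse left out. Hjurp in the liver became -0.21 with normexp and -0.0035 with median centring, and ranged from -0.23 to 0.38 with 1 mouse left out. Nek2 in the liver became -0.17 with normexp and -0.0068 with median centring, and ranged from -0.21 to 0.24 with 1 mouse left out. In the same way Anln in the lung ranged from -0.16 to 0.023, Ncapd2 in WAT from -0.022 to 0.28, Cdc20 in the liver from -0.43 to 0.52, Melk in the lung from -0.058 to 0.25, Ckap2 in WAT from -0.19 to 0.21 and Hjurp in WAT from -0.21 to 0.080. Quantile normalization put Hjurp in WAT at 0.059.

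For members given as at least a fold, normexp changes were below the bound. In the liver they were 0.97 for Foxm1, 0.47 for Melk, 0.56 for Bub1b, 0.12 for Ndc80, 0.72 for Kif23 and 0.079 for Kif4, and Foxm1 alone of these stayed called. In the kidney they were 0.44 for Bub1, 0.095 for Ttk, 0.27 for Kif11, 0.39 for Kif4, 0.49 for Ckap2l and 0.047 for Dlgap5, and Bub1, Kif4 and Ckap2l stayed called.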
